A study of Mus musculus with 22 samples.

Results

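The genes that encode the proteasome were followed across 5 sorted mouse haematopoietic stem and progenitor populations. Members were the genes whose symbol starts with Psma to Psmg followed by a digit, without the 3 immunoproteasome genes Psmb8, Psmb9 and Psmb10. Of 46 genes with such a symbol in the array's annotation, 37 had a probe detected at p under 0.05 on at least 4 of the 22 arrays, and they are described here beside all 11118 genes that passed that filter. Each gene is given by its brightest probe. Of the 37 members, 35 encode proteasome subunits, activators or assembly chaperones. The remaining pair, Psmc3ip, which encodes the meiotic recombination factor HOP2, and Psme3ip1, whose product binds the activator PA28γ, match by symbol only. The genes Psma1, Psma3, Psma6, Psmb11, Psmc6, Psmd2, Psmd3, Psmd5 and Psmg4 did not pass. Their probes were detected on no array for 7 of these 9, on 1 array for Psmc6 and on 2 for Psmd5, so no level can be given for them.

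The proteasome is the protease that degrades proteins tagged with ubiquitin. Its core particle is a barrel of alpha rings, which gate the entrance, and beta rings, which hold the proteolytic sites. A regulatory particle, made of a base with a ring of ATPases and a lid that removes ubiquitin, recognises, unfolds and feeds in substrates. Alternative caps such as PA28 and PA200 can bind the core in its place, and dedicated chaperones assemble both particles. In mouse blood formation, stem cells are known for a low rate of protein synthesis compared with progenitors.

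All cells were sorted from the marrow of 8-week-old animals of the C57BL/6 strain, each transgenic for GATA1-GFP, and the labels name no treatment. The populations were LT-HSC (long-term haematopoietic stem cells, 6 arrays), GATA1-LSK and GATA1+LSK (lineage-negative, Sca-1-positive, Kit-positive cells without and with the reporter, 4 arrays each), LMPP (lymphoid-primed multipotent progenitors, 4 arrays) and CMP (common myeloid progenitors, 4 arrays). All groups carry the reporter, so none is a wild type, and the labels name neither the transgene's promoter nor whether replicates came from separate animals. The p-values therefore measure only the spread between these samples, which may be technical. Total RNA was amplified and hybridised to Illumina bead arrays, which lay on 4 slides. Values are log2 of background-corrected, quantile-normalised signal, and a difference of 1 is a 2-fold change. A gene was called at an adjusted p under 0.05, with limma and Benjamini-Hochberg adjustment over all 11118 genes. In sorted bulk samples, fewer cells of a type and less RNA per cell cannot be told apart.

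The LT-HSC arrays fell apart by slide. Slide 2 held LT-HSC replicates 1 and 2, and slide 3 held replicates 3 to 6. Mpo, a granulocyte and monocyte progenitor enzyme, was at 7.57 and 7.45 on the first pair and at 10.82, 11.60, 13.61 and 13.46 on the other 4, against 13.74 to 13.99 in CMP. Slamf1, which marks LT-HSC, was at 6.89 and 6.91 on slide 2 and at 4.35 to 5.40 on slide 3. It averaged 5.54 in LT-HSC and 5.98 in GATA1+LSK. The other measured LT-HSC markers did not all fall likewise. Mecom was at 6.06 and 6.44 on slide 2 and at 6.46 to 7.62 on slide 3, the opposite direction. Hlf was at 5.19 and 5.20 against 4.72 to 6.66, and Esam at 11.94 and 12.19 against 11.13 to 11.84. The neutrophil genes S100a8 and S100a9 were detected on 4 of 6 LT-HSC arrays, those of slide 3. The summed linear signal of the 4 measured of 6 listed neutrophil genes ran from 130 to 4545 in LT-HSC and from 93.3 to 102 in CMP. The 4 measured CMP markers summed to 264 to 15364 in LT-HSC. The erythroid gene Hba-a1 stood at 11.13 and 11.94 on GATA1+LSK replicates 1 and 4, and Mpo at 13.25 on replicate 4 against 10.40 to 11.01 on the other 3. Some markers averaged highest in the population they mark: Dntt at 8.99 in LMPP and at most 5.80 elsewhere, F13a1 at 9.91 in CMP against at most 5.60, and Gata1 at 7.19 in GATA1+LSK against at most 6.62. Others did not: the LMPP marker Il7r averaged 7.67 in LT-HSC and 7.35 in LMPP, the GATA1+ marker Vwf 11.62 in LT-HSC and 11.21 in GATA1+LSK, and the LT-HSC marker Hlf 5.49 in LT-HSC and up to 6.04 elsewhere. Of the 4 measured macrophage genes, C1qa, C1qb and C1qc averaged highest in LMPP, at 5.13, 7.09 and 6.49, and Vcam1 lowest there, at 5.20. Their summed linear signal was 253 to 400 in LMPP, inside the ranges of LT-HSC (90.6 to 458) and GATA1+LSK (108 to 442). The probe for Flt3, an LMPP marker, averaged at most 5.03 in any population. The part of these cells in the results below was not tested. The counts and the called members of the comparisons with LT-HSC are therefore also given against the slide 2 arrays alone, a choice made after seeing the marker levels.

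Few proteasome genes differed between the populations. A moderated F test over the 5 populations called 5 of 37 members, against 22.9% of all genes tested. Those were Psmd13 (adjusted p 0.000441), Psmc3ip (adjusted p 0.00225), Psme2 (adjusted p 0.0245), Psmd14 (adjusted p 0.0382) and Psmc5 (adjusted p 0.0464), all from limma. The median gap between the highest and the lowest population mean was 0.48 log2 for the members and 0.66 for all genes. The gap passed 1 in 5 of 37 members and in 27.5% of all genes. Replicates of a member also lay close together, with a median within-population SD of 0.34 log2 against 0.42 for all genes.

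On average the members read highest in CMP and lowest in LT-HSC. The mean log2 signal over the members was 10.11 ± 0.11 in LT-HSC (SD, n = 6), 10.19 ± 0.13 in GATA1-LSK (n = 4), 10.21 ± 0.11 in LMPP (n = 4), 10.32 ± 0.13 in GATA1+LSK (n = 4) and 10.48 ± 0.09 in CMP (n = 4). The LT-HSC arrays ran from 9.97 to 10.24 and the CMP arrays from 10.43 to 10.62, without overlap. The mean over all genes lay between 7.39 and 7.50 on all 22 arrays, but quantile normalisation holds it nearly equal by design. The neighbours in this order overlapped, GATA1+LSK included, whose replicate 3 at 10.47 lay above 3 of the 4 CMP arrays. Of the 37 members, 20 had their highest population mean in CMP, as did 23.7% of all genes, and 16 their lowest in LT-HSC, as did 29.2% of all genes. Slide moved with these means: within each of the 5 populations every array on slide 3 or 4 lay above every array on slide 1 or 2. On slide 2, which held both, CMP was at 10.43 and LT-HSC at 9.99, each the mean of 2 arrays.

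**Figure D1:**
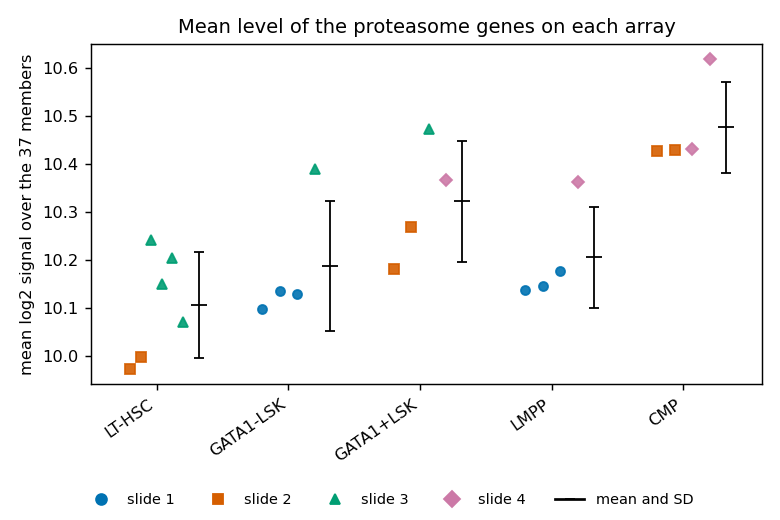
Mean log2 signal over the 37 members on each of the 22 arrays (vertical axis), by population (horizontal axis), with the slide as symbol and the mean and SD as bars. The CMP arrays lie between 10.43 and 10.62, above every LT-HSC, GATA1-LSK and LMPP array.

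**Figure D2:**
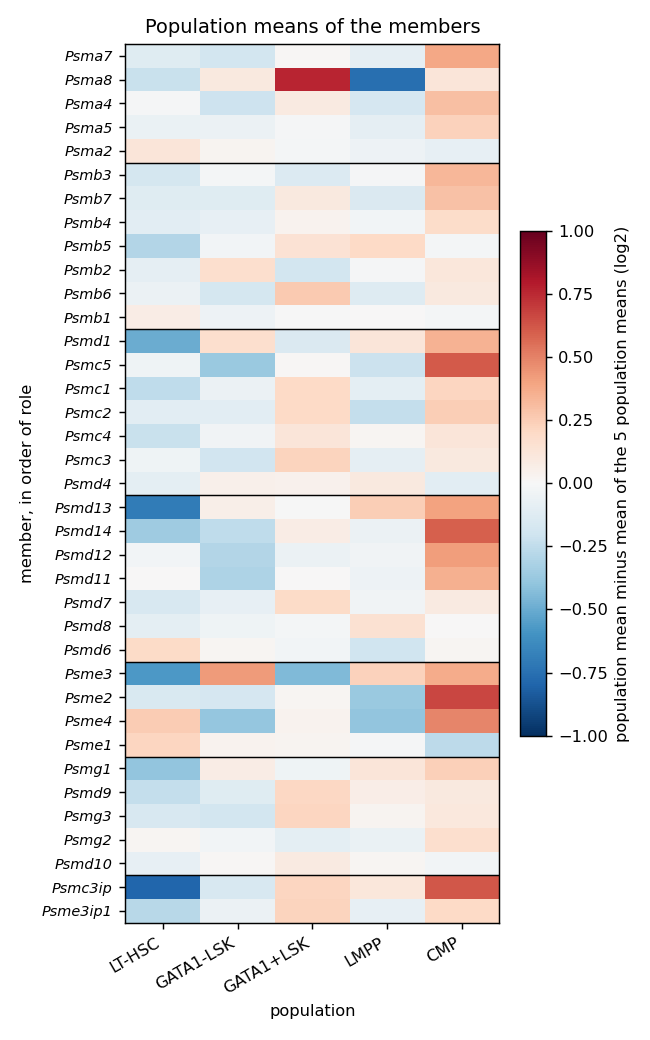
Population mean of each member minus the mean of its 5 population means, in log2 units (colour), with populations as columns and members as rows ordered by role from alpha ring to assembly chaperones and the 2 genes that match by symbol only. The CMP column holds the highest mean of 20 of the 37 members and the LT-HSC column the lowest of 16.

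CMP, which derive from the stem cells, were set against LT-HSC. In CMP 8 of 37 members were called higher and 0 lower, against 10.1% of all genes higher and 11.4% lower. The rise reached both lid and base of the regulatory particle (Psmd13, Psmd14, Psmc5, Psmd1), the core (Psmb3), an activator (Psme2) and a core chaperone (Psmg1), besides Psmc3ip. The difference was above 0 for 32 of 37 members, with a median of 0.34 log2, while the median over all genes was 0.06. These are the brightest probes: of 23 further detected probes, from 16 of the members, 16 had the direction of their gene's brightest probe. At an unadjusted p under 0.05 the counts were 11 higher and 1 lower. In 7 of the 37 members the CMP and LT-HSC arrays did not overlap, as in 15.4% of all genes. Against the 2 LT-HSC arrays of slide 2 alone, 7 members were called, 4 of them among the 8, against 21.1% of all genes. There 31 differences were above 0, with a median of 0.42 beside 0.09 over all genes. That comparison set CMP arrays of slides 2 and 4 against LT-HSC arrays of slide 2. Within slide 2, 2 arrays of each, the median was 0.38, and all 8 called members kept their direction. Median scaling in place of quantile normalisation called 7, with Psmc3ip, Psmd13, Psme2 and Psmc5 kept, Psmd14, Psmd1, Psmg1 and Psmb3 lost, and Psma7, Psmc2 and Psmd7 gained.

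**Figure D3:**
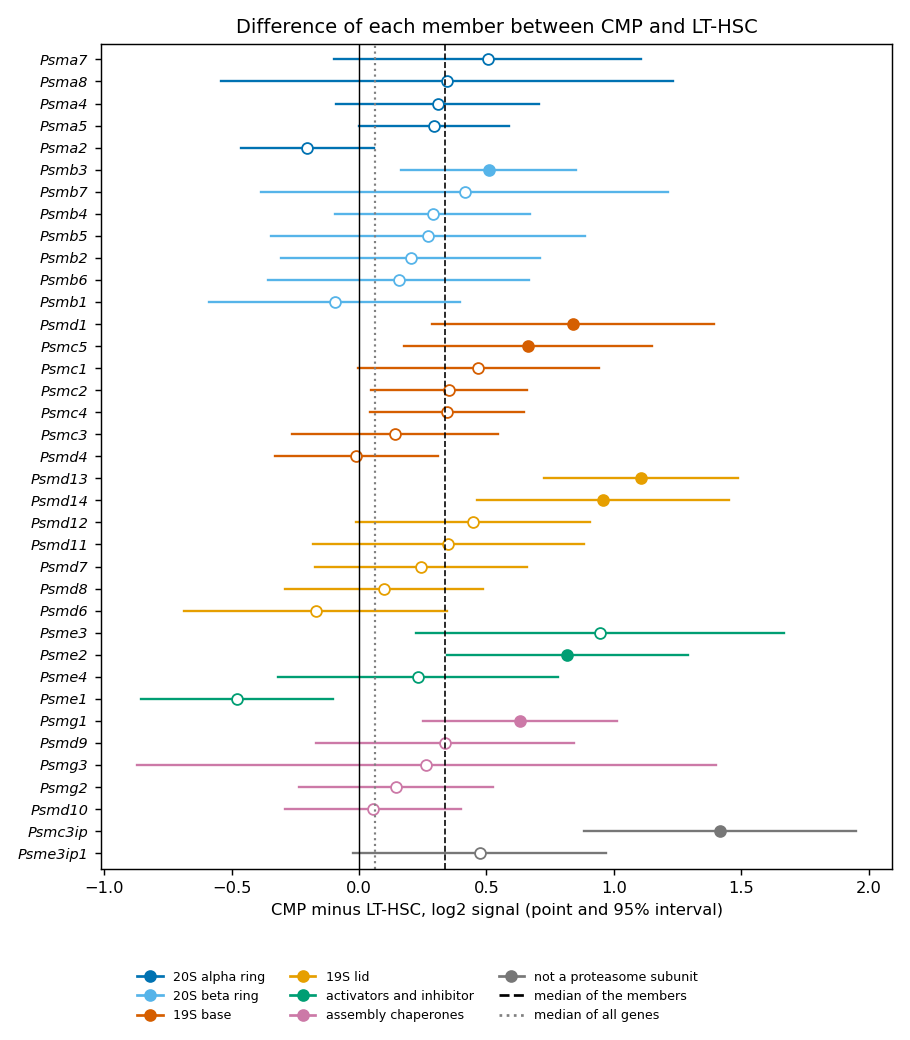
Difference of each of the 37 members between CMP and LT-HSC in log2 signal (horizontal axis, point and 95% interval), members as rows coloured by role, with filled points for called members. The dashed line marks the members' median of 0.34 and the dotted line the median of all genes, 0.06; the 8 filled points all lie to the right of 0.

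The lid of the regulatory particle held the 2 largest differences among the subunits called in CMP against LT-HSC. Psmd13 encodes a structural lid subunit. Its log2 signal on the LT-HSC arrays was 11.96 at the lowest, 12.04 at the median and 12.19 at the highest. The CMP arrays read 13.63, 13.11, 13.23 and 12.65, the LMPP arrays 13.22, 12.77, 12.91 and 13.08, the GATA1+LSK arrays 12.78, 12.81, 12.61 and 12.80, and the GATA1-LSK arrays 13.10, 13.15, 12.53 and 12.46. Every array of the other populations was thus above every LT-HSC array, and those populations overlapped one another. CMP was higher than LT-HSC by 1.11 ± 0.18 (SE), a fold of 2.15, with a limma adjusted p of 0.000105. LMPP and LT-HSC shared no slide. The other differences, which share the same LT-HSC arrays, were 0.95 in LMPP (adjusted p 0.000804), 0.76 in GATA1-LSK (0.0167) and 0.70 in GATA1+LSK (0.0139), again from limma. Against slide 2 LT-HSC alone these became 1.19 in CMP (limma adjusted p 0.00286), 1.02 in LMPP (0.0102), 0.84 in GATA1-LSK (0.0502) and 0.78 in GATA1+LSK (0.0592). With slide as a block the limma adjusted p was 0.00148 in CMP, 0.0602 in LMPP, 0.232 in GATA1-LSK and 0.0237 in GATA1+LSK. Under median scaling the limma adjusted p was 0.00112 in CMP, 0.0169 in LMPP, 0.348 in GATA1-LSK and 0.145 in GATA1+LSK. Without GATA1-LSK replicate 1 or 2, the GATA1-LSK call was lost, with adjusted p up to 0.0876.

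Psmd14 encodes the lid's deubiquitinating enzyme, which cuts ubiquitin chains from substrates. LT-HSC arrays read 6.93, 7.27 and 7.75 at the lowest, median and highest, and CMP arrays 8.58, 8.22, 8.11 and 8.24, all above LT-HSC. GATA1-LSK read 7.73, 7.81, 7.32 and 6.87, GATA1+LSK 8.09, 7.71, 7.32 and 7.94, and LMPP 7.88, 7.56, 6.99 and 8.09, each overlapping LT-HSC. The CMP minus LT-HSC difference was 0.96 ± 0.24 (SE) with a limma adjusted p of 0.00532. It was 0.85 ± 0.26 against GATA1-LSK (limma adjusted p 0.0473). The second Psmd14 probe gave 0.82 for CMP minus LT-HSC. The LT-HSC call did not hold with slide as a block (limma adjusted p 0.129) or against slide 2 LT-HSC alone (0.77, limma adjusted p 0.0956) or under median scaling (1.36, limma adjusted p 0.0865), and the within-slide difference was 0.89. The GATA1-LSK call was lost without GATA1-LSK replicate 3 or 4 or any CMP replicate (adjusted p up to 0.150) and under median scaling (0.285). Of the other 5 lid genes none was called in any comparison in the fit without a block. Psmd12 was called in CMP against LT-HSC with slide as a block (0.76, limma adjusted p 0.0299), and under median scaling Psmd7 was (0.73, limma adjusted p 0.0411). For CMP minus LT-HSC the other Psmd7 probes, detected on all 22 arrays, gave 0.89 and 0.45, against 0.24 for the brightest. The second Psmd6 probe, detected on 5 arrays, gave 0.13 against -0.17. Psmd11 was detected on 8 of 22 arrays and Psmd6 on 4, and no GATA1-LSK array detected Psmd11.

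In the base, Psmc5 and Psmd1 were called. Psmc5 encodes an ATPase of the unfolding ring. Its LT-HSC arrays read 9.39, 9.49 and 9.80 at the lowest, median and highest, against 10.12, 9.87, 10.06 and 10.68 in CMP, all higher. GATA1-LSK was at 9.23, 9.05, 8.70 and 9.79, GATA1+LSK at 9.22, 9.20, 9.75 and 10.15, and LMPP at 9.39, 8.99, 9.16 and 9.87, ranges that overlap LT-HSC. CMP stood 0.66 ± 0.23 (SE) above LT-HSC, with a limma adjusted p of 0.0478, and 0.99 ± 0.26 above GATA1-LSK, with 0.0170. The first call was near the threshold and was lost without any 1 of LT-HSC replicates 2 to 6 or CMP replicates 1, 3 and 4 (adjusted p up to 0.182), with slide as a block (0.118) and against slide 2 LT-HSC alone (0.284). The second was lost without GATA1-LSK replicate 2 or 3 or CMP replicate 4 (adjusted p up to 0.0789) and under median scaling (0.0786). A second Psmc5 probe gave a larger CMP minus LT-HSC difference of 1.46.

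Psmd1 encodes a large scaffold of the base. LT-HSC arrays ran from 11.44 through a median of 12.03 to 12.50, and CMP arrays read 13.09, 13.14, 12.71 and 12.42, of which replicate 4 lay inside the LT-HSC range. Psmd1 divided with the slides, higher on slide 2. LT-HSC read 12.50 and 12.38 there against 11.44 to 12.09 on slide 3. CMP replicates 1 and 2, on slide 2, lay above replicates 3 and 4, on slide 4. GATA1+LSK read 13.04 and 12.84 on slide 2, 11.83 on slide 3 and 11.71 on slide 4. The CMP minus LT-HSC difference of 0.84 ± 0.27 (SE) had a limma adjusted p of 0.0272, and the other probes gave 0.65 and 0.98. With slide as a block it was 0.71 (limma adjusted p 0.0247), while against slide 2 LT-HSC alone it was 0.40 (0.446). It was also lost without CMP replicate 1 or 2 or LT-HSC replicate 3 or 6 (adjusted p up to 0.0963) and under median scaling (0.0779). The other ATPase genes were not called against LT-HSC in the fit without a block. Psmc2 and Psmc4 had CMP arrays entirely above LT-HSC, with differences of 0.35 each and limma adjusted p of 0.0959 and 0.0977. Psmc2 was called with slide as a block (0.48, limma adjusted p 0.0378) and under median scaling (0.76, limma adjusted p 0.0355). Psmd4, whose product is a ubiquitin receptor, differed by -0.01, with a 95% interval from -0.33 to 0.31.

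In the core particle 1 of the 12 alpha and beta ring genes measured was called in CMP against LT-HSC, Psmb3. It encodes a beta subunit without a proteolytic site. LT-HSC arrays ran from 11.56 through 11.83 to 12.27 and CMP read 12.46, 12.33, 12.04 and 12.54, with replicate 3 inside the LT-HSC range. The other populations read 11.91, 12.11, 12.15 and 11.78 in GATA1-LSK, 11.67, 11.78, 12.00 and 12.04 in GATA1+LSK, and 11.83, 11.87, 12.09 and 12.20 in LMPP. The difference of 0.51 ± 0.17 (SE) had a limma adjusted p of 0.0308, which rose to 0.149 with the replicate number as a block and to 0.229 with slide as a block. Against slide 2 LT-HSC alone it was 0.31 (limma adjusted p 0.341). The call was also lost without CMP replicate 1, 2 or 4 or LT-HSC replicate 5 or 6 (adjusted p up to 0.0980) and under median scaling (0.0664). Psma7, an alpha subunit gene, differed by 0.51 (limma adjusted p 0.239) and, with the replicate number as a block, by 0.68 (0.00860). It was called as well with slide as a block (0.76, limma adjusted p 0.0111), under median scaling (0.92, limma adjusted p 0.0222) and against slide 2 LT-HSC alone (1.18, limma adjusted p 0.0141). The genes of the proteolytic sites, Psmb5, Psmb6 and Psmb7, differed by 0.27, 0.16 and 0.41, with limma adjusted p of 0.573, 0.716 and 0.496. Psmb7 was called with slide as a block at 1.12 (limma adjusted p 0.0157), while its other 3 probes gave 0.55, -0.05 and -0.19 in the fit without a block. The median difference was 0.31 over the 5 alpha ring genes and 0.27 over the 7 beta ring genes, against 0.35 over the 7 base and 0.35 over the 7 lid genes.

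Psmb2, a beta subunit gene, divided with the slides in both populations. Its LT-HSC replicates 1 and 2, on slide 2, read 13.16 and 13.06, and replicates 3 to 6 read 13.93, 14.27, 14.13 and 13.97. CMP replicates 1 and 2, on slide 2, read 13.27 and 13.86, and replicates 3 and 4, on slide 4, read 14.31 and 14.39. The difference from CMP was 0.20 over all LT-HSC arrays (limma adjusted p 0.617) and 0.84 against slide 2 LT-HSC alone (limma adjusted p 0.0307). Within slide 2 it was 0.45. The other Psmb2 probes, detected on 22 and 10 arrays, gave 0.03 and -0.10 for CMP minus LT-HSC over all arrays. Psmg3, a core assembly chaperone, divided with the slides in the same way. Its LT-HSC arrays read 9.12 and 9.14 on slide 2 against 11.18, 11.73, 11.43 and 11.55 on slide 3, and its CMP arrays 9.93 and 10.70 on slide 2 against 11.73 and 11.47 on slide 4. The CMP minus LT-HSC difference was 0.26 (limma adjusted p 0.787) over all arrays, 1.83 (0.0292) against slide 2 LT-HSC alone and 1.19 within slide 2. The values of 0.84 and 1.83 set CMP arrays of slides 2 and 4 against LT-HSC arrays of slide 2.

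Psma8 encodes a germ cell form of an alpha subunit. It was detected on 17 of 22 arrays. GATA1+LSK read 6.33, 6.14, 7.40 and 6.68, LMPP 4.55, 4.83, 6.15 and 4.99, GATA1-LSK 4.87, 6.12, 6.15 and 6.77, CMP 6.30, 5.73, 5.86 and 6.13, and LT-HSC 4.42, 5.93 and 6.58 at the lowest, median and highest. LMPP, where 2 of 4 arrays detected it, was lower than GATA1+LSK by 2.85-fold, -1.51 ± 0.47 (SE) in log2, with a limma adjusted p of 0.0469. This was the 1 member called in LMPP against GATA1+LSK, where 8.57% of all genes were called. LMPP replicate 3 at 6.15 lay just inside the GATA1+LSK range. The call was lost without any 1 of LMPP replicates 1, 2 and 4 or GATA1+LSK replicates 1, 3 and 4 (adjusted p up to 0.172), with slide as a block (0.354) and under median scaling (0.184). A second probe, detected on 9 arrays, gave -0.59.

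Of the 4 activator genes 1 was called, Psme2. It encodes the beta subunit of PA28, an interferon-inducible cap. Its signal was low throughout and was detected on 13 of 22 arrays: 4 of 4 in CMP, 4 of 6 in LT-HSC, 3 of 4 in GATA1+LSK and 1 of 4 each in GATA1-LSK and LMPP. CMP read 6.11, 5.45, 6.18 and 5.85, LMPP 4.77, 4.71, 4.79 and 5.16, GATA1-LSK 4.82, 4.77, 4.82 and 5.84, and GATA1+LSK 4.92, 5.05, 5.71 and 5.32. LT-HSC ran from 4.75 through 4.97 to 5.48, so CMP lay wholly above LMPP and overlapped the others. CMP was higher than LMPP by 1.04 ± 0.25 (SE, limma adjusted p 0.0122), than GATA1-LSK by 0.84 ± 0.25 (0.0427) and than LT-HSC by 0.82 ± 0.23 (0.0124). Against slide 2 LT-HSC alone the last was 1.06 (limma adjusted p 0.0187). With slide as a block it kept a limma adjusted p of 0.000449, while CMP against LMPP went to 0.117 and CMP against GATA1-LSK to 0.198. The GATA1-LSK call was lost without any 1 of GATA1-LSK replicates 1 to 3 or CMP replicates 1, 3 and 4 (adjusted p up to 0.145).

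Psme1, the alpha subunit of the same cap, was measured at 11.83 ± 0.17 (SD, n = 6) in LT-HSC and 11.35 ± 0.26 (n = 4) in CMP, a difference of -0.48 with a limma adjusted p of 0.0635, which was 0.0485 with the replicate number as a block. Its second probe, detected on all 22 arrays, gave -0.07. Psme3 encodes PA28γ, the nuclear cap. It read 7.55, 8.22 and 8.66 at the lowest, median and highest in LT-HSC, 9.68, 8.95, 8.85 and 9.08 in GATA1-LSK, 8.59, 8.74, 7.90 and 7.87 in GATA1+LSK, 9.86, 9.74, 8.48 and 7.71 in LMPP, and 9.11, 9.26, 9.52 and 8.45 in CMP. All GATA1-LSK arrays lay above all LT-HSC and all GATA1+LSK arrays. No Psme3 comparison was called without a block: GATA1-LSK minus LT-HSC was 1.0005 (limma adjusted p 0.104), CMP minus LT-HSC 0.95 (0.0570, or 0.0353 with the replicate number and 0.0146 with slide as a block) and GATA1+LSK minus GATA1-LSK -0.86 (0.288). Psme4 encodes PA200, a cap linked to histone degradation. Its arrays read 9.49, 9.92 and 10.13 at the lowest, median and highest in LT-HSC, 10.31, 10.39, 9.49 and 10.16 in CMP, 8.50, 8.74, 9.62 and 10.01 in GATA1-LSK, 9.57, 9.50, 9.68 and 9.80 in GATA1+LSK, and 9.08, 9.58, 8.78 and 9.36 in LMPP. LT-HSC and CMP were the higher pair, and none of its comparisons was called without a block. CMP minus LMPP, 0.89, came with a limma adjusted p of 0.0820. LMPP minus LT-HSC was -0.65 (limma adjusted p 0.0982) and, with the replicate number as a block, -0.83 (0.0490).

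Of the 5 assembly chaperone genes, Psmg1 was called in CMP against LT-HSC. Its product starts the building of alpha rings. LT-HSC arrays ran from 9.60 through 9.90 to 10.19 and CMP arrays read 10.75, 10.50, 10.24 and 10.61, all higher. The other populations read 10.52, 10.07, 10.09 and 10.77 in GATA1-LSK, 10.50, 10.12, 10.32 and 10.03 in GATA1+LSK, and 10.31, 10.69, 10.49 and 10.13 in LMPP. They overlapped CMP, and GATA1-LSK replicate 4 lay above every CMP array. The difference of 0.63 ± 0.18 (SE) had a limma adjusted p of 0.0156, and of 0.000976 with slide as a block and 0.0123 against slide 2 LT-HSC alone. Without CMP replicate 1 the adjusted p was 0.0632, and under median scaling it was 0.0601. Psmd9 and Psmd10, chaperones of the regulatory particle, differed by 0.34 and 0.05 and were not called. The other Psmd10 probes, detected on all 22 arrays, gave 0.47 and 0.25, and the second Psmd9 probe gave 0.32.

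Psmc3ip, which belongs to the list by its symbol only, had the largest difference in CMP against LT-HSC. LT-HSC read 8.54, 9.16 and 9.94 at the lowest, median and highest, CMP 10.70, 10.52, 10.32 and 10.73, LMPP 9.80, 9.80, 10.09 and 10.53, GATA1+LSK 10.13, 10.26, 10.52 and 9.72, and GATA1-LSK 9.67, 9.53, 9.55 and 10.39. CMP lay wholly above LT-HSC, and the 3 others overlapped it through LT-HSC replicate 5. LMPP and LT-HSC shared no slide. The differences from LT-HSC were 1.42 ± 0.26 (SE) in CMP (limma adjusted p 0.000290), 1.01 in GATA1+LSK (0.0116) and 0.91 in LMPP (0.0171). Against slide 2 LT-HSC alone they were 1.97, 1.56 and 1.46, with limma adjusted p of 5.20e-05, 0.00101 and 0.00124. The GATA1+LSK call missed the threshold without GATA1+LSK replicate 3 (adjusted p 0.0522) and the LMPP call without LMPP replicate 4 (0.0736). Under median scaling both were lost, at 1.12 (limma adjusted p 0.140) and 1.17 (0.0777), while the CMP difference was 1.90 (0.00205). GATA1-LSK was called too with slide as a block (1.24, limma adjusted p 0.0140).

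**Figure D4:**
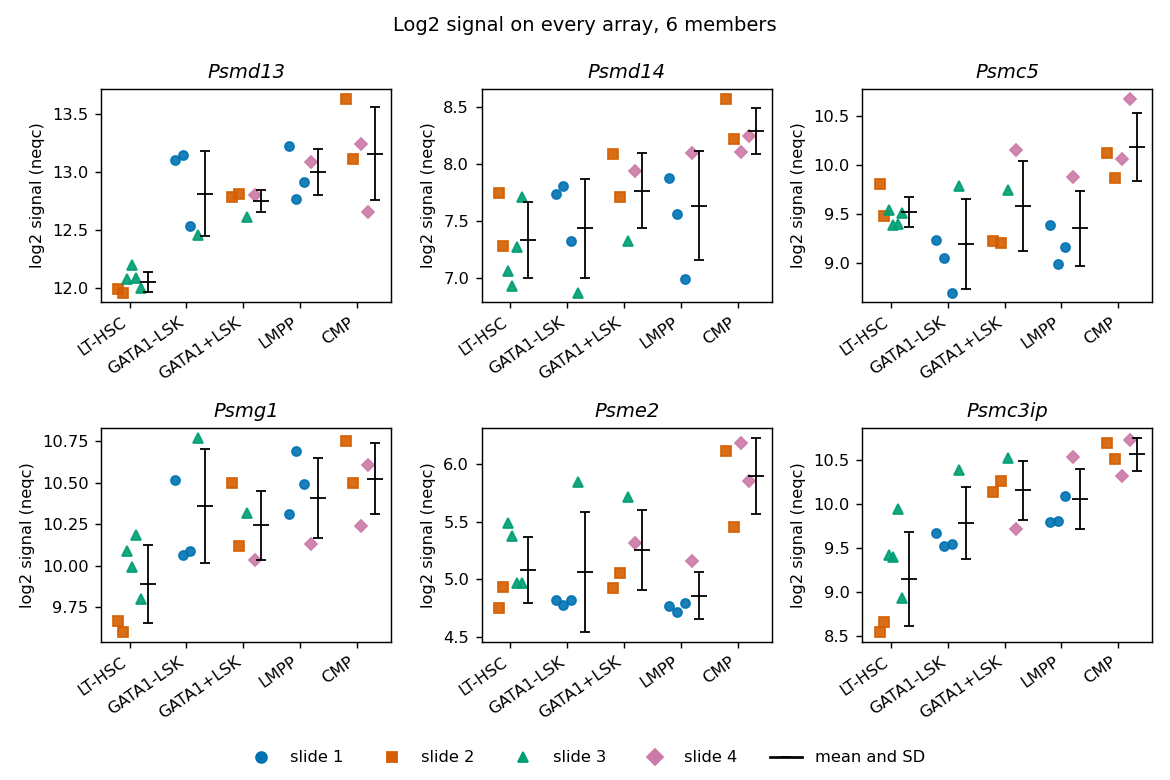
Log2 signal (vertical axes) of Psmd13, Psmd14, Psmc5, Psmg1, Psme2 and Psmc3ip on each of the 22 arrays, by population (horizontal axes), with the slide as symbol and the mean and SD as bars. In the Psmd13 panel every LT-HSC array, at 11.96 to 12.19, lies below every other array.

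The start regions of the called subunit and chaperone genes whose CMP and LT-HSC arrays did not overlap are shown because these genes were all higher in CMP. Each line gives the 250 bases before the gene's start, 5′ to 3′ on the gene's strand, from RefSeq on GRCm38.p6, with motif letters in capitals.
Psmd13, chr7:140882144-140882393, plus strand: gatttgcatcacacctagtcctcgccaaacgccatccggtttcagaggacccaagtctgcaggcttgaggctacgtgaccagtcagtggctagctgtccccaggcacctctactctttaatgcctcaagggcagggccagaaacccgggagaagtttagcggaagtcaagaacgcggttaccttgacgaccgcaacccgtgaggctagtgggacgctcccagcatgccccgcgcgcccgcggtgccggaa
Psmd14, chr2:61711444-61711693, plus strand: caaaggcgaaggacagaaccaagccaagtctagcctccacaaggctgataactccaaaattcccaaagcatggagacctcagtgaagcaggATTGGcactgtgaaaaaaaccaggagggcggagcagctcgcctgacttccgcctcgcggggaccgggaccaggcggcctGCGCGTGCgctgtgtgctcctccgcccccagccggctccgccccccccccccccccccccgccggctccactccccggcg
Psmc5, chr11:106255935-106256184, plus strand: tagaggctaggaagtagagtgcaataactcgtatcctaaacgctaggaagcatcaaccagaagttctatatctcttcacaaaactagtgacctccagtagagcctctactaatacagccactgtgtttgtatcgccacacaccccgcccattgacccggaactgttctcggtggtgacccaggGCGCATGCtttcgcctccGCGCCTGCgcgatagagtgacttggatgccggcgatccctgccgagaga
Psmg1, chr16:95990961-95991210, minus strand: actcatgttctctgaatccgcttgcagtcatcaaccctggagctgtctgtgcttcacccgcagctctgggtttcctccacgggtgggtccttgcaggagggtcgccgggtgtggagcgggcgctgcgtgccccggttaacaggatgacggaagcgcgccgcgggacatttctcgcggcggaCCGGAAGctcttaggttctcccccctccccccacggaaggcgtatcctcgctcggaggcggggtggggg
Capitals mark 4 motifs searched on both strands, none of which overlapped another in these windows. The letters TGACNNNGC stood for the core of the antioxidant response element. Those of the NFY box were CCAAT. For an ETS-type site CCGGAAG was taken. For an NRF1-type site, that of the nuclear respiratory factor and not of the Nfe2l1 product, GCANGCGC was taken. The Psmd14 window held the NFY box on the other strand and the NRF1-type letters, also on the other strand. Psmc5 held the NRF1-type letters at 2 places on the other strand, Psmg1 the ETS-type letters once, and Psmd13 none of the 4. Such windows were given for 30 of the 37 members, the others being Psma8, Psmb1, Psmb2, Psmb7, Psmc3, Psmd7 and Psmg2. The ETS-type letters stood in 10 of the 30 (33.3%), against 7.83% of 27025 genes with a window, and the NRF1-type letters in 5 (16.7%), against 8.90%. The NFY box was in 11 (36.7%), against 37.5%, and the antioxidant core in 4 (13.3%), against 11.5%. The 27025 genes were not limited to those detected on these arrays, and the shares among the 11118 genes tested were not counted. A match of letters is a description and not a binding site.

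The reporter-positive and reporter-negative LSK cells, the pair that the reporter separates, did not differ at the threshold in the brightest probe of any proteasome gene. GATA1+LSK against GATA1-LSK called 0 of 37 members with limma, against 2.74% of all genes, and at an unadjusted p under 0.05 only Psme3 was lower. The median difference was 0.19 log2, with 26 of 37 above 0, beside -0.05 over all genes. The alpha ring median was 0.19 and the base median 0.26. On slide 3, the slide that held both, 1 array of each gave a median of 0.13. Further probes of the members were not tested singly, and some differed more than the brightest. The second Psmd14 probe gave 1.14 against 0.33, and the other Psmd10 probes 0.67 and 0.71 against 0.07. Others were lower, such as the other Psmb2 probes at -0.16 and -0.58 against -0.35.

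Against LT-HSC, the other LSK and LMPP populations differed in few members. GATA1-LSK had 1 member called (5.45% of all genes), Psmd13, with a median of 0.03 beside 0.05 for all genes. GATA1+LSK had 2 called (10.5% of all genes), Psmc3ip and Psmd13, with a median of 0.17 beside 0.01. LMPP, which shared no slide with LT-HSC, had the same 2 called (16.2% of all genes), with a median of 0.08 beside 0.06. Against the slide 2 LT-HSC arrays alone these counts were 2, 2 and 4, all higher, beside 9.73%, 12.4% and 18.2% of all genes. The members then called besides Psmc3ip and Psmd13 were Psmb2 in GATA1-LSK, Psmg3 in GATA1+LSK, and Psmg1 and Psmg3 in LMPP. Those called with slide as a block, besides Psmc3ip and Psmd13, were Psmg1 and Psmg3 in GATA1+LSK and Psmg1 in LMPP.

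CMP was also above the other progenitor populations in a few members. CMP against GATA1-LSK called Psmc5, Psmd14 and Psme2, 3 of 37 (7.67% of all genes in either direction, 2.45% higher), with a median of 0.26 beside -0.01 and 30 members above 0. CMP and GATA1-LSK shared no slide, and with slide as a block the count was 0 in limma. CMP against LMPP called 1 member, Psme2 (5.89% of all genes), with a median of 0.22 and 30 above 0. With the replicate number as a block this count was 2, with Psmc5 at a limma adjusted p of 0.0183, and with slide as a block it was 0. CMP against GATA1+LSK called 0 of 37 with limma (6.5% of all genes), with 4 higher at an unadjusted p under 0.05 and a median of 0.15. With slide as a block, and under median scaling, 1 member was called higher in that comparison, Psme2 both times. LMPP against GATA1-LSK called 0 of 37 with limma (3.49% of all genes), none at an unadjusted p under 0.05, with a median of 0.05. In LMPP against GATA1+LSK the median was -0.10, with 12 of 37 above 0, and it was 0.00033 under median scaling and 0.09 between the single arrays of each on slide 4.

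Few genes that work with the proteasome were called. Of 28 listed genes for the immunoproteasome, associated proteins, regulators, ubiquitin, ubiquitin activation, shuttle factors and the segregase, 18 were measured and the F test called 0 of them in limma, against 22.9% of all genes, with Uba6 and Nploc4 at an unadjusted p under 0.05. In CMP against LT-HSC 1 was higher and 1 lower, beside 10.1% of all genes higher and 11.4% lower. Nploc4, a cofactor of the segregase that extracts ubiquitinated proteins, was higher by 0.62 ± 0.20 (SE, limma adjusted p 0.0251), a call lost against slide 2 LT-HSC alone (0.146), with slide as a block (0.0541) and under median scaling (0.179). Uba6, one of the ubiquitin-activating enzymes, was lower by 2.88-fold, -1.53 ± 0.41 (SE) in log2, with a limma adjusted p of 0.00965, and of 0.289 against slide 2 LT-HSC alone. The immunoproteasome genes Psmb8, Psmb9 and Psmb10 differed by 0.77, 0.25 and 0.10 in that comparison, with limma adjusted p of 0.158, 0.424 and 0.836. Psmb8 was called against slide 2 LT-HSC alone (1.72, limma adjusted p 0.00494), with slide as a block (1.26, limma adjusted p 0.00578) and under median scaling (1.19, limma adjusted p 0.0155), and the shuttle factor gene Ubqln4 with slide as a block (0.64, limma adjusted p 0.00857). The list's median in CMP against LT-HSC was 0.18 log2, beside 0.06 over all genes.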

How the data were processed

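Gene expression was measured on 22 Illumina bead arrays of sorted mouse bone marrow populations. The deposited table gives, per its headers, 1 linear intensity and 1 detection p-value per probe and array. Some intensities were negative, down to -14.3 for the Psmd9 probe, as values can be after a background subtraction. Any such step came before deposit, and the background correction described below was applied on top of it. The deposited value table of the same arrays holds the authors' quantile-normalised signal on a linear scale and served as an alternative. BeadStudio is named in the submitters' processing notes, and its version is not given in the sources used here. Of 45281 probes, 34885 carried 1 gene symbol, 18 several and 10378 none in the platform annotation, with symbols updated through RefSeq gene IDs. The intensities were background-corrected and quantile-normalised with neqc (limma 3.58.1, R 4.3.3, offset 16), using the detection p-values for the background. Genes kept the brightest probe detected at p under 0.05 on at least 4 arrays. A group-means model was fitted with lmFit and eBayes to all 22 arrays and 11118 genes, with 17 residual degrees of freedom, for a moderated F and 10 two-sided contrasts. The number of arrays, not counting error, limits the precision. The fit was tested on simulated data. Slides were read from the array labels. Same-numbered replicates of CMP and LT-HSC, CMP and LMPP, CMP and GATA1+LSK, GATA1+LSK and LT-HSC, and LMPP and LT-HSC correlated in their deviations from the group means at over 0.1 in every pair, from 0.111 to 0.641, so blocked values are given where they change a call. The array values of the 8 members with the largest F, and of the member with the largest F in each role, are printed, as are the called members. The members and lists were chosen with earlier results of these data known. Motif letters were counted in RefSeq start regions.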

Additional observations from a re-analysis of the deposited data

Results flagged for a closer look

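Outlying arrays were looked for in 85 sets of 4 to 6 arrays (10 members, the mean over the members and 6 role means, in 5 populations), as a gap to the nearest array above Dixon's critical value, which chance alone passes in about 1 of 20 sets. It was passed in 10. GATA1-LSK replicate 4, the only GATA1-LSK array on slide 3, stood above the other 3 in the mean over the members at 10.39 against 10.10 to 10.13, in Psmc3ip at 10.39 against 9.53 to 9.67 and in Psme2 at 5.84 against 4.77 to 4.82. CMP replicate 4 stood above its group in the mean over the members at 10.62 against 10.43 and in the alpha ring mean at 11.55 against 11.31 to 11.35, and below it in the mean of the activators at 8.90 against 9.16 to 9.19. GATA1+LSK replicate 3 was high in the alpha ring mean at 11.66 against 11.22 to 11.29 and low in Psmd13 at 12.61 against 12.78 to 12.81. LMPP replicate 4, the only LMPP array on slide 4, was high in the beta ring mean at 11.88 against 11.56 to 11.58. LT-HSC replicate 1 was high in Psmc5 at 9.80 against 9.39 to 9.54. The part of slide in these values was not tested.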

How the results depend on the processing

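The median member difference in CMP against LT-HSC was 0.34 and kept its sign in every alternative run. No called member reversed in any alternative run. Median scaling in place of quantile normalisation moved the all-gene median to 0.29 in that comparison and to 0.23 in CMP against GATA1-LSK, and the members' medians to 0.72 and 0.67. It called 3 members by F, 0 in GATA1-LSK and 0 in GATA1+LSK against LT-HSC, 1 in LMPP against LT-HSC, 1 each in CMP against GATA1-LSK and GATA1+LSK, and 0 in LMPP against GATA1+LSK, and lost 11 of the 18 single calls. With slide as a fixed block 10 members were called in CMP against LT-HSC, 5 of them among the 8, 4 in GATA1+LSK against LT-HSC, 1 in CMP against GATA1+LSK and 0 in CMP against GATA1-LSK, CMP against LMPP and LMPP against GATA1+LSK. As a random block slide gave 0 in CMP against GATA1-LSK, 0 in LMPP against GATA1+LSK and 1 in CMP against GATA1+LSK. The replicate block called 8 by F, 5 in CMP against GATA1-LSK, where the numbers did not pair the samples, and 2 in CMP against LMPP, and of the 18 single calls it lost that of Psmb3. CMP against LMPP also had 2 calls without background correction, without a detection filter, with the mean of all detected probes and with a variance trend. Without a detection filter 1 was called in CMP against GATA1-LSK. The authors' normalised values gave 0 in LMPP against GATA1+LSK. With only the arrays compared, the counts against LT-HSC were 0 in GATA1-LSK, 1 in GATA1+LSK and 1 in LMPP. Alternatives added after seeing the data gave 1 in GATA1+LSK and 1 in LMPP against LT-HSC without the 2 genes that encode no subunit or chaperone, and 0 in LMPP against GATA1+LSK and 0 in CMP against LMPP with only members detected on all arrays. Against slide 2 LT-HSC alone, 3 members were called by F, 2 in GATA1-LSK (9.73% of all genes) and 4 in LMPP (18.2%).

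Leaving out each array in turn gave 2 to 6 members by F, 4 to 8 in CMP against LT-HSC (4 without CMP replicate 1, 5 without LT-HSC replicate 6), 0 to 2 in GATA1-LSK, 1 to 3 in GATA1+LSK and 2 to 3 in LMPP against LT-HSC, 0 to 5 in CMP against GATA1-LSK, 1 to 2 in CMP against LMPP and 0 to 1 in LMPP against GATA1+LSK. Probes near background, as for Psme2 and Psma8, give compressed differences, and 9 genes of the symbol rule have no level here.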
